A study of Homo sapiens with 10 samples.

Results

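The genes described here encode the shared core of the COMPASS complexes and the accessory subunits that set its different forms apart. They are WDR5, RBBP5, ASH2L, DPY30, MEN1, CXXC1, WDR82, PAXIP1, KDM6A and NCOA6. They were chosen by name, and all 10 were found among the 20037 protein-coding genes of RefSeq (GRCh38.p14) on chromosomes 1 to 22, X and Y. The study precipitated chromatin from HEK293T, a human embryonic kidney line with the SV40 large T antigen, after nuclei had been digested with micrococcal nuclease. Antibody to WDR5 was used on wild-type cells (WT) and on cells with the EMBOW microprotein knocked out (KO). Anti-FLAG beads were used on HEK293T cells with stable expression of EMBOW-FH, and that list is called EMBOW-F. Each of these 3 lists rests on 1 library, so no difference below has a replicate check or a p-value. The sources used here do not give whether the knockout line is 1 clone. The tagged protein came from a stable transgene, so the EMBOW-F list does not describe EMBOW at its own level. The lists hold no RNA values, and summits at the EMBOW locus were not examined, so neither the cell line nor the knockout was checked.

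COMPASS complexes methylate lysine 4 of histone H3, a mark found at active promoters and enhancers. A catalytic SET-domain protein works only weakly alone. WDR5, RBBP5, ASH2L and DPY30 bind it as a common core that stimulates methylation. Accessory subunits then distinguish the forms. CXXC1 and WDR82 belong to the SETD1A and SETD1B complexes, MEN1 to those of KMT2A and KMT2B, and PAXIP1, KDM6A and NCOA6 to those of KMT2C and KMT2D. The precipitated protein is thus a partner of every other gene product in the group.

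The deposited lists give each peak as a summit of 1 bp with a −log10 q score from the authors' peak caller. There were 17660 summits in WT, 21055 in KO and 93143 for EMBOW-F. A summit's rank is 1 plus the number of summits in its own list with a higher score, and scores and ranks were read only within a list. Read depth is unknown, because the lists hold no counts. A gene-end summit is one within 1 kb of either end of the RefSeq gene, and "inside" and "outside" say on which side of that end it lies. A gene with a gene-end summit is called marked in that genotype, and marked in KO alone if WT had none. The ends are called lower and upper by their coordinate (hg38). Starts of transcription were taken from the RefSeq promoter table, which held 6 of the 10 genes, with 4 starts for WDR5 and 2 for MEN1. ASH2L, DPY30, PAXIP1 and NCOA6 had no entry.

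WDR5 summits were called at the ends of most of these genes in both genotypes. In WT, 7 of the 10 had a gene-end summit, against 50.0% of all protein-coding genes. In KO all 10 had one, against 53.4%. The 7 genes marked in WT were WDR5, ASH2L, DPY30, WDR82, PAXIP1, KDM6A and NCOA6, and all 7 were also marked in KO, against 46.4% of all genes marked in both. RBBP5, MEN1 and CXXC1 were marked in KO alone, a call that 6.99% of all genes had. The converse was found at none of them, against 3.51%. Within 10 kb of an end, 8 of 10 had a WT summit (61.2% of all genes) and 10 of 10 a KO summit (65.0%), with 8 marked in both (58.5%). MEN1 gained a WT summit at that distance, which left RBBP5 and CXXC1 with KO summits alone, against 6.52% of all genes. None had a WT summit alone, against 2.65%. No EMBOW-F summit lay within 1 kb (1.4% of all genes) or within 10 kb (4.79%) of any of the 10 genes.

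**Figure D1:**
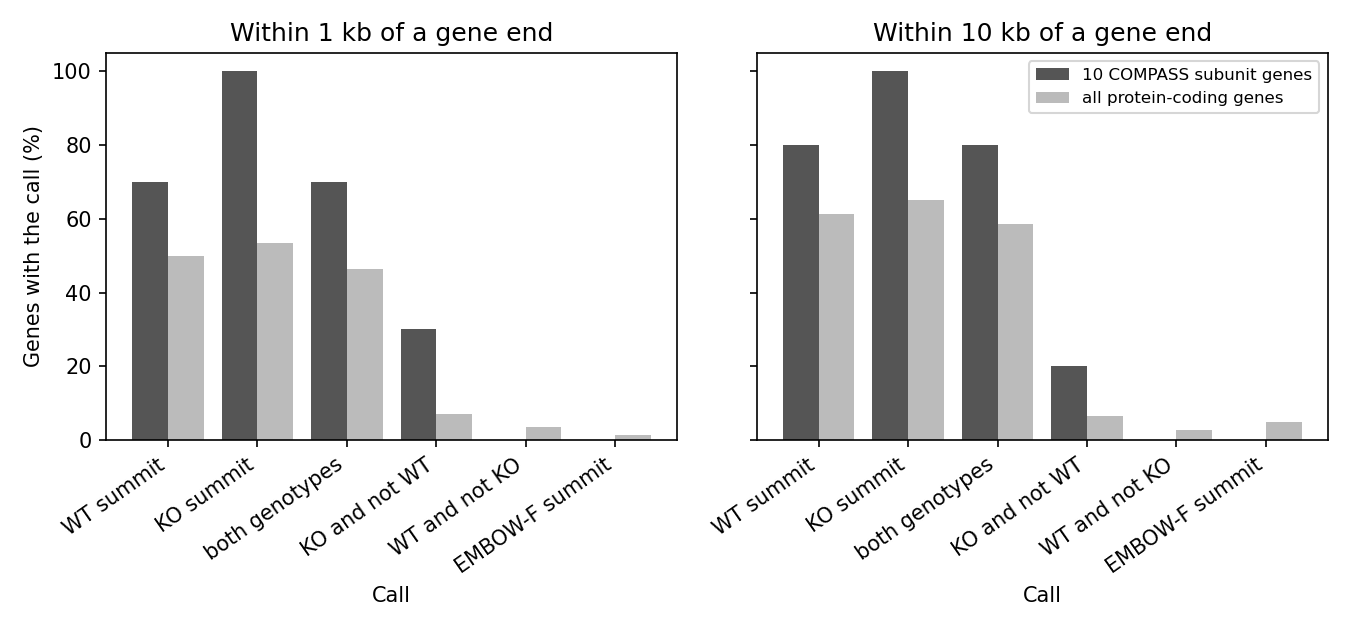
Percent of genes with each call within 1 kb (left) and 10 kb (right) of a gene end, for the 10 COMPASS subunit genes (dark bars) and all 20037 protein-coding genes (light bars). The KO bar of the subunit genes stands at 100%, and the bars for WT and not KO and for EMBOW-F stand at 0.

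Paired summits lay close together. For 8 of the 10 genes the best-scored KO gene-end summit had a WT summit within 500 bp, near the 81.2% found over the 10707 genes with a KO gene-end summit. The median distance from that KO summit to the nearest WT summit was 51.0 bp, and it was 89.0 bp over all such genes. PAXIP1 had the shortest distance at 5 bp, followed by DPY30 at 6 bp, MEN1 at 32 bp, WDR82 at 35 bp, KDM6A at 36 bp, NCOA6 at 66 bp and WDR5 at 116 bp. ASH2L stood apart from these at 446 bp. The remaining genes, RBBP5 and CXXC1, had no WT summit within 89369 bp and 467785 bp of their KO summit.

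**Figure D2:**
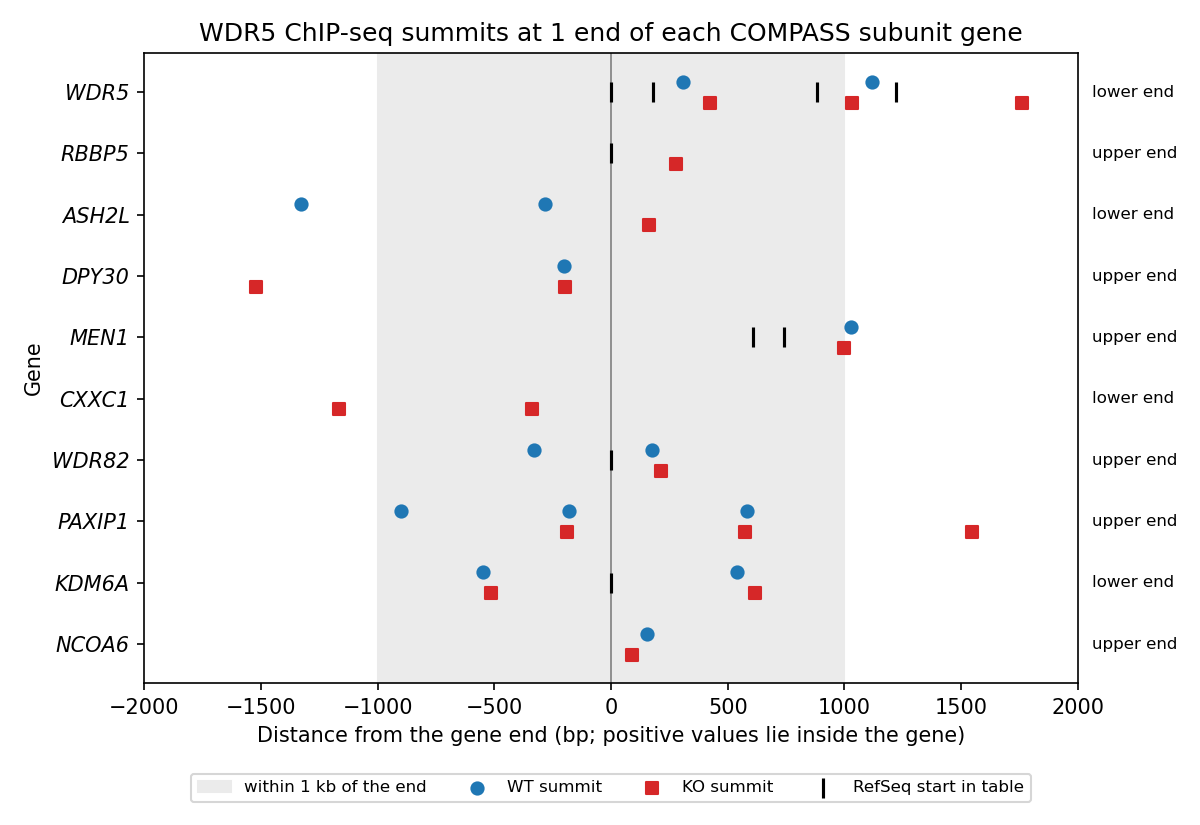
Positions of WT (blue circles) and KO (red squares) WDR5 summits within 2 kb of the end that carries each gene's best-ranked gene-end summit, in bp from that end, with positive values inside the gene. Black ticks are RefSeq starts from the promoter table and the grey band is the 1 kb window. WT and KO symbols fall at nearly the same distance in most rows, RBBP5 and CXXC1 have KO symbols alone, and the MEN1 pair straddles the edge of the band.

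Among the core subunits, DPY30 carried the highest-ranked summit of the group. DPY30 is the small dimeric subunit that docks on ASH2L. At its upper end on chromosome 2 the WT summit (32040038, 203 bp outside, −log10 q 109) ranked 122 and the KO summit (32040032, 197 bp outside, −log10 q 136) ranked 123. These ranks are the top 0.691% of the WT list and the top 0.584% of the KO list. The next best-ranked genes of the group were KDM6A in WT, at 9.46%, and NCOA6 in KO, at 11.0%. Over the 7 marked genes the median rank was 17.8% of the WT list, against 33.7% for the best gene-end summits of all 10011 genes marked in WT. Over the 10 genes in KO it was 25.2%, against 30.2% for all 10707. By rank percent in both WDR5 lists, the protein-coding genes most like DPY30 were ACAP2 (ranks 121 and 126), BCL2L1 (119 and 116) and REXO4 (128 and 119). That likeness covers 1 library of each genotype and adjacent ranks only.

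The lower end of DPY30 faces another gene. The upper end of MEMO1, a cell motility factor, lies 640 bp away from it. No start was listed for MEMO1, so whether this end is its start was not read. KO had summits 804 bp (32010845, rank 7112) and 386 bp (32011263, rank 19205) outside the lower end of DPY30. Both lay nearer to the upper end of MEMO1, at 163 bp and 255 bp. WT had a summit 1113 bp outside DPY30 (32010536, rank 13528), beyond the window and 309 bp from the nearest KO summit. A further pair at 32009782 in WT (rank 7940) and 32009770 in KO (rank 6363) lay 12 bp apart, also nearer to MEMO1. DPY30 was marked in both genotypes without these summits.

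**Figure D3:**
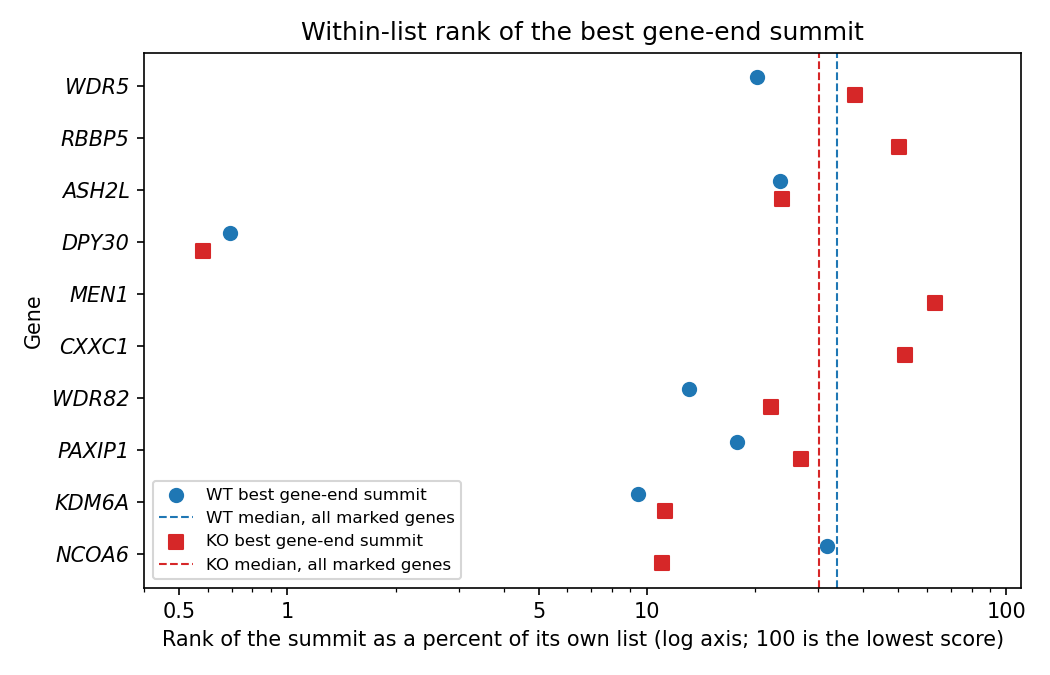
Rank of each gene's best gene-end summit as a percent of its own list on a log axis, in WT (blue circles) and KO (red squares). Dashed lines are the medians over all marked genes, 33.7% in WT and 30.2% in KO. DPY30 lies below 1% in both lists, and RBBP5, MEN1 and CXXC1 have a KO symbol alone, to the right of both lines.

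WDR5, the histone-binding WD40 subunit that was itself precipitated, had summits along a start region with several RefSeq starts on chromosome 9. Its gene-end summits were at 134135506 in WT (307 bp inside the lower end, −log10 q 13.0, rank 3592) and at 134135622 in KO (423 bp inside, −log10 q 8.51, rank 8004). Higher-ranked summits lay just past the 1 kb window in both lists. The WT one at 134136318 (1119 bp inside, −log10 q 17.4) ranked 2017, and the KO one at 134136231 (1032 bp inside, −log10 q 17.1) ranked 2852. They were 87 bp apart and fell 103 bp and 190 bp before the most downstream RefSeq start at 134136421. The gene-end rule therefore missed the better-scored WDR5 summit in each genotype. KO also had a weak summit at 134136961 (rank 17056), 643 bp from the nearest WT summit. The long non-coding gene WDR5-DT has its upper end 476 bp from the WT gene-end summit and 360 bp from the KO one.

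The stretch that holds both of these higher summits is shown, from 10 bases before the KO summit to 10 bases after the WT summit, on the plus strand (RefSeq, GRCh38.p14, chr9:134136221-134136328). Capitals in this and the other sequences mark matches to the motifs searched on both strands, which were CACGTG (the E-box), CCAAT (the CCAAT box), GGGCGG (the GC box), TATAAA (the TATA box), ATGGCGG (a core of YY1 sites), CCGGAAG (a core of ETS sites) and TGACGTCA (the cAMP response element).
WDR5: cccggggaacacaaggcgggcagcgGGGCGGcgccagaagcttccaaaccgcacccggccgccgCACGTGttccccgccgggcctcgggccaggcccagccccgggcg

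This stretch of 108 bases held a CACGTG and a GGGCGG. Of all 35116 windows of 250 bases upstream of a start, which are longer than this stretch, 6.34% held CACGTG and 42.6% held GGGCGG. The CACGTG began 136 bp before the most downstream start, between the KO and the WT summit. From the first to the last of the 4 starts, the 250 bases upstream held 2, 9, 23 and 39 CpG dinucleotides, and the median over all windows was 11.0. The last count exceeded that of 97.3% of windows. The gene-end summits of both genotypes lay nearest to the start whose window held 9. In each list the summit near the CpG-rich downstream starts outranked the gene-end summit. A motif match is a description of these letters and not a binding site.

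Farther out, WDR5 had WT and KO summits past its upper end at 134165372 (rank 6273) and 134165159 (rank 3165), 213 bp apart. They lay 5404 bp and 5191 bp from WDR5 but 808 bp and 595 bp from RNU6ATAC, a small nuclear RNA gene of the minor spliceosome. KO had another at 134164215 (rank 18296), 224 bp from RNU6ATAC. These are within 10 kb of WDR5 by the rule and nearer to that neighbour.

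ASH2L, the SPRY-domain core subunit that binds DPY30, had 1 gene-end summit in each genotype, on opposite sides of its lower end on chromosome 8. The WT summit at 38105210 lay 283 bp outside (−log10 q 11.9, rank 4130). The KO summit at 38105656 lay 163 bp inside (−log10 q 12.5, rank 4985). The rank percents were 23.4 and 23.7. WT had a further, weaker summit 1330 bp outside (38104163, rank 14362). With 1 library per genotype, the 446 bp between the WT and KO positions has no measure of error.

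RBBP5, the WD40 subunit that joins the catalytic SET domain to ASH2L, was the only one of the 6 genes with a listed start that had a KO summit and no WT summit within 1 kb of it. The KO summit on chromosome 1 at 205121701 lay 277 bp inside the upper end, which is also its RefSeq start (−log10 q 6.25, rank 10558 of 21055). This was a middling score, shared by 93 KO summits. The nearest WT summit was 89369 bp away on one side and 435552 bp on the other. These WT neighbours frame 524921 bp without a WT summit, and intervals at least that long were 7.25% of all intervals between WT summits but held 56.3% of their summed length. Such intervals were thus common by length but not by number, and how often they surround a gene was not counted. KO had 2 summits in that interval. Of the 4 protein-coding genes that lay wholly within it, 1 had a KO gene-end summit, and this was RBBP5, around which the interval was taken. Over all genes, 6.99% were marked in KO alone, a share whose base includes genes marked in WT. The interval was drawn around the RBBP5 KO summit, so the count of 1 of 4 is a description only. In the authors' deposited table of new WDR5 targets dependent on EMBOW, 3 transcripts overlapped RBBP5, and no transcript overlapped any of the other 9 genes. A listed transcript overlapped 11.5% of all protein-coding genes and 72.6% of the 1400 genes marked in KO alone. That table is filed under the KO input sample, and how its transcripts were picked is not stated in the sources used here. By its name it was drawn from these samples, so its overlaps are given as a description and are no independent evidence for RBBP5.

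The 250 bases upstream of the RBBP5 start are shown because this is the gene of the group where the genotypes differed at the start itself (RefSeq, GRCh38.p14, minus strand, chr1:205121979-205122228). They held none of the motifs searched and 12 CpG dinucleotides, close to the median of 11.0.
RBBP5: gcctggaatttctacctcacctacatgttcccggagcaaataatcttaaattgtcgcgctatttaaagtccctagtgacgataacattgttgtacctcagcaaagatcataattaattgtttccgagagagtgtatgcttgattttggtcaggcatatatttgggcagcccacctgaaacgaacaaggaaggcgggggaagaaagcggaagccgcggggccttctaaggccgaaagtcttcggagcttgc

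Of the MLL-type accessory subunits, MEN1 encodes menin, the scaffold that tethers KMT2A and KMT2B and a tumour suppressor of endocrine tissue. Its call in KO alone came from the edge of the window. The WT summit on chromosome 11 at 64810264 lay 1030 bp inside the upper end (−log10 q 4.14, rank 12733), and the KO summit at 64810296 lay 998 bp inside (−log10 q 4.74, rank 13281). They were 32 bp apart. The promoter table places MEN1 starts at 64810551 and 64810686, inside the upper end of the gene, so the WT summit lay 287 bp and the KO summit 255 bp after the nearer start. By these starts MEN1 was marked in both genotypes. Of the 1400 genes marked in KO alone, 17.2% had a WT summit within 2 kb of an end, as MEN1 did.

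Of the SETD1-type accessory subunits, CXXC1 reads unmethylated CpG through its zinc finger. It had no summit at its own start in either genotype. CXXC1 is on the minus strand of chromosome 18, with its RefSeq start at its upper end (50287692). The nearest KO summit lay 5682 bp downstream of that start, and the nearest WT summit 473467 bp downstream. The KO summit that marked CXXC1 lay 337 bp outside its lower, 3′ end (50282010, −log10 q 6.07, rank 11006). It was nearer to MBD1, which encodes a protein that binds methylated CpG and lies 579 bp beyond CXXC1 on the same strand. The summit fell 243 bp before the MBD1 start at 50281767. A second KO summit at 50281180 (rank 17413) lay 587 bp inside MBD1. The authors' deposited table had 27 transcripts overlapping MBD1 and none overlapping CXXC1. Of all genes with a KO gene-end summit, 14.0% had their best one nearer to another protein-coding gene, as CXXC1 did, and 11.5% of the genes marked in KO alone did.

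**Figure D4:**
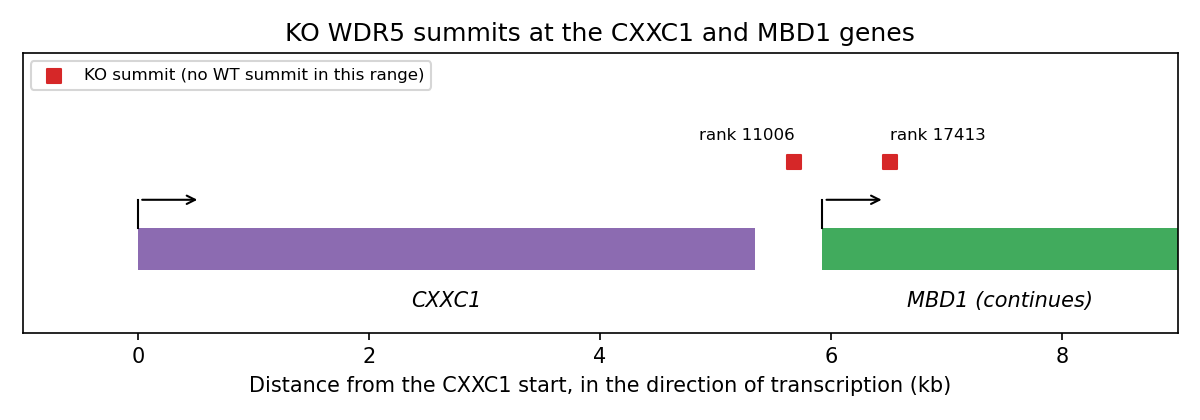
Map of CXXC1 (purple) and MBD1 (green) in kb from the CXXC1 start, in the direction of transcription, with arrows at the starts and KO WDR5 summits as red squares with their ranks. Both KO summits flank the MBD1 start, and none lies at the CXXC1 start.

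The 250 bases upstream of both starts are shown, because the window of MBD1 holds the KO summit and that of CXXC1 holds none (RefSeq, GRCh38.p14, minus strand, chr18:50287693-50287942 for CXXC1 and chr18:50281768-50282017 for MBD1). Each held 23 CpG dinucleotides, more than 74.2% of windows. CXXC1 held ATGGCGG, found in 2.88% of windows, beginning 124 bp before the start. MBD1 held none of the motifs searched.
CXXC1: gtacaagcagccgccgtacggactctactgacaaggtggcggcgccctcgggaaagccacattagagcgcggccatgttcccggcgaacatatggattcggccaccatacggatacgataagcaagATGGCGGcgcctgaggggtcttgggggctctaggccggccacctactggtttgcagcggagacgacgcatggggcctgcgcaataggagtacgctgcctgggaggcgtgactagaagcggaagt
MBD1: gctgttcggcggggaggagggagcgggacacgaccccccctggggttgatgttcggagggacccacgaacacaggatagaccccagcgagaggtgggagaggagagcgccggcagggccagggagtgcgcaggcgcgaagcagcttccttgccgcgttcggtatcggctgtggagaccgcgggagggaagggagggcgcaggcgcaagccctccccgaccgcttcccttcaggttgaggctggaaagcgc

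The WT summits around this pair were far apart. Counted from the KO summit, the nearest ones lay 467785 bp and 596696 bp away and framed 1064481 bp without a WT summit. Intervals at least that long were 2.96% of all intervals between WT summits and held 37.7% of their summed length. KO had 4 summits in that interval, none ranked above 11006. Of the 7 protein-coding genes that lay wholly within it, 4 had a KO gene-end summit. The interval was taken around a KO summit and holds no WT summit. The 53.4% of all genes marked in KO is therefore not a like share, because most of those were also marked in WT. Marked in KO alone were 6.99% of all genes, but that base includes the 50.0% of genes marked in WT. It is thus not a like share either, and the share among genes without a WT gene-end summit was not computed. The KO summit at 50282010 counted for both CXXC1 and MBD1.

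WDR82, a WD40 subunit that links SETD1A and SETD1B to RNA polymerase II, was marked at its start in both genotypes. Its start is the upper end, on chromosome 3 at 52278649. WT had a summit 177 bp inside (52278472, −log10 q 16.4, rank 2317) and another 330 bp outside (52278979, −log10 q 12.5, rank 3873), 507 bp apart on either side of the start. KO had 1 summit there, 212 bp inside (52278437, −log10 q 12.9, rank 4674), and its distance to the outside WT summit was 542 bp. Each list also had a weak summit deeper in the gene, 2843 bp from the end in WT (rank 13412) and 2317 bp in KO (rank 17238). Within 10 kb, a pair 34 bp apart belonged by distance to GLYCTK, a glycerate kinase gene, at 44 bp in WT and 78 bp in KO. A KO summit 8614 bp past the other end (52245820, rank 9903) lay 61 bp from an end of PPM1M, a protein phosphatase gene.

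The accessory subunits of the KMT2C and KMT2D complexes were all marked in both genotypes. KDM6A, which demethylates lysine 27 of histone H3, had summits on both sides of its start on chromosome X (44873188). In WT they lay 550 bp before the start (44872638, −log10 q 8.56, rank 6636) and 541 bp after it (44873729, −log10 q 19.1, rank 1670). In KO they lay 514 bp before (44872674) and 616 bp after (44873804), both with a −log10 q of 18.8 and tied at rank 2351. The pairs were 36 bp and 75 bp apart between genotypes. Within the WT list the downstream summit scored higher, and within the KO list the scores were equal. KDM6A also had the only summit of the group deep in a gene body, in KO, 154759 bp after the start (45027947, −log10 q 5.22, rank 12340). The nearest WT summit to it was 154218 bp away.

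The 250 bases between the flanking summits of KDM6A, up to its start, held no summit of either genotype (RefSeq, GRCh38.p14, plus strand, chrX:44872938-44873187). They held CACGTG beginning 95 bp before the start, CCAAT on the opposite strand at 198 and 70 bp before it, and GGGCGG at 157 and 54 bp before it. CCAAT occurs in 32.0% of windows. The window had 27 CpG dinucleotides, more than 82.3% of windows.
KDM6A: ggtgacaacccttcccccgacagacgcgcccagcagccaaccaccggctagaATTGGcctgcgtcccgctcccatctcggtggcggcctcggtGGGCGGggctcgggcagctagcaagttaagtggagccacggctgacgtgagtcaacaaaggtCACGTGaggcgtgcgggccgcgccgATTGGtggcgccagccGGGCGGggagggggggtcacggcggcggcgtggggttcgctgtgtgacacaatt

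PAXIP1, a BRCT-domain protein also known from DNA damage signalling, had the most closely paired summits. Its upper end on chromosome 7 lies 21 bp from PAXIP1-DT, a long non-coding gene. WT had summits 584 bp inside (155002827, rank 4182), 182 bp outside (155003593, rank 3135) and 899 bp outside (155004310, rank 9433). KO had them 572 bp inside (155002839, rank 7007) and 187 bp outside (155003598, rank 5646), and a weak one 1547 bp inside (155001864, rank 18809). The outside pair differed by 5 bp and the inside pair by 12 bp. The WT summit at 899 bp had no KO summit within 712 bp of it. In both lists the summit just outside PAXIP1 was the highest of the locus. It lay inside PAXIP1-DT, 160 bp from its end in WT and 165 bp in KO, so the calls do not assign it to either gene.

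NCOA6, a nuclear receptor coactivator, had 1 gene-end summit per genotype at its upper end on chromosome 20. The WT summit at 34825495 lay 156 bp inside (−log10 q 9.74, rank 5576), and the KO summit at 34825561 lay 90 bp inside (−log10 q 19.0, rank 2309), 66 bp away. The rank percents of WT and KO lay farthest apart at NCOA6 (31.6 and 11.0), followed by WDR5 (20.3 and 38.0 at its gene-end summit). The higher-ranked WDR5 summits just past the 1 kb window lay closer together, at 11.4 in WT and 13.5 in KO. None of these gaps has an error, and ranks from lists of different lengths do not measure a change. A WT summit 5754 bp past the other end (34709020, rank 11754) was nearer to TP53INP2, at 4416 bp.

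Counted by RefSeq starts in place of gene ends, 4 of the 6 genes with a listed start were marked in WT (54.6% of the 15843 genes with one) and 5 in KO (58.1%). WDR5, MEN1, WDR82 and KDM6A were marked in both (51.2%), RBBP5 in KO alone (6.92%), none in WT alone (3.38%) and CXXC1 in neither. Of the 3 genes marked in KO alone by gene ends, RBBP5 was thus the one whose call did not turn on the choice of gene end or window.

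More than 1 gene-end summit was found at 3 of the 10 genes in WT (WDR82, PAXIP1 and KDM6A), against 12.7% of all protein-coding genes. In KO it was 3 of 10 (DPY30, PAXIP1 and KDM6A), against 14.5%. DPY30 entered this KO count through summits at its lower end that lay nearer to MEMO1, and its upper end had 1 KO gene-end summit. The summits closest to the 1 kb limit were those of MEN1 in KO at 998 bp and PAXIP1 in WT at 899 bp on the inner side of the limit. Just beyond it lay MEN1 in WT at 1030 bp, WDR5 in KO at 1032 bp and in WT at 1119 bp, DPY30 in WT at 1113 bp and CXXC1 in KO at 1167 bp. WDR5 and DPY30 had another summit within 1 kb in the same list, so that MEN1 was the only gene whose call in a genotype turned on this edge.

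Tagged EMBOW was not called near these genes. The nearest EMBOW-F summit lay 371685 bp from PAXIP1, and the distance was greatest for WDR5 at 11408977 bp. DPY30 (421982 bp) and KDM6A (450422 bp) came next after PAXIP1. The median distance over the 10 genes was 2476159 bp, and over all protein-coding genes it was 1546767 bp. None of these nearest summits scored highly in the EMBOW-F list. The best, 1058390 bp from ASH2L, ranked 27722 of 93143. Since few genes of any kind had an EMBOW-F summit at an end, the count of 0 of 10 does not set this group apart.

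Other genes of the pathway were taken from a list drawn up by role. Their counts are read against the shares of all protein-coding genes, which were 46.4% marked in both genotypes, 6.99% in KO alone, 3.51% in WT alone and 1.4% with an EMBOW-F gene-end summit. Of the 6 catalytic subunit genes (KMT2A, KMT2B, KMT2C, KMT2D, SETD1A and SETD1B), 5 were marked in both genotypes and SETD1B in neither, with its nearest WT summit 8161 bp and KO summit 4134 bp from an end. SETD1A ranked highest of these, at 273 in WT and 674 in KO. Of 7 other partners (PAGR1, HCFC1, HCFC2, PSIP1, BOD1, BOD1L1 and WDR5B), 5 were marked in both genotypes, and HCFC1 and BOD1L1 in KO alone. HCFC1, a host cell factor that binds SETD1 and KMT2 proteins, had a KO gene-end summit at rank 2517. Its nearest WT summit lay 1060 bp from an end, just past the window. Its nearest KO summit lay 161 bp from an end, not at the window edge as at MEN1. BOD1L1, a SETD1A partner in fork protection, had a KO summit at rank 10232 (−log10 q 6.62). WT summits came no nearer than 20876 bp to an end of it, the pattern seen at RBBP5. All 5 genes for H3K4 demethylases (KDM1A, KDM1B, KDM5A, KDM5B and KDM5C) were marked in both genotypes. The WT call of KDM5B lay at the window edge, with its nearest WT summit 996 bp and KO summit 869 bp from an end. Gene-end summits of EMBOW-F were found at none of the genes on these lists, and neither were WT summits without a KO one.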

How the data were processed

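The series has 10 samples with 1 library per group, and 3 summit lists from WDR5 or FLAG precipitation were used. The libraries for H3K4me3 and the inputs were not analysed here. The submitters' processing notes name hg38, MACS2 2.2.7.1, Bowtie2 2.4.5 and deepTools 3.5.1 without roles or settings. The deposited lists give 1 bp summits with a −log10 q per summit, a unit read from the values, whose minimum lies at about 1.3 in each list. The sources used here do not give the input used or any pooling. The EMBOW-F list was matched to the FLAG precipitation, since no other ChIP of tagged EMBOW is labelled. The authors' deposited table of 18665 transcripts had 1 line with a damaged chromosome name, which was repaired, and holds no other measurement.

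Distances from summits to both ends of 20037 RefSeq genes were computed with Python 3.11.15, numpy 2.4.6 and pandas 2.3.3, and the distance code was tested on simulated data. Starts came from the RefSeq promoter table, which covers 15843 of these genes. Motif shares were counted over 250 bases upstream of each listed start. Figures used matplotlib 3.10.9. Shares over all genes stand beside the counts of marked genes, and no p-values were computed because each group has 1 library. All 10 genes were named whatever their values, with neighbours whose end a summit lay within 1 kb of or nearer to, genes of the pathway list marked in 1 genotype, and the 3 genes most like the highest-ranked member. SETD1A, SETD1B and KDM5B were named with values after these were seen. The genes and lists were chosen with earlier results of these data known. Alternatives were other windows, a q of 1e-05, lists of equal length, starts only, other partner distances and, added after seeing the data, the nearest gene only and a margin of 2 kb.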

Additional observations from a re-analysis of the deposited data

How the results depend on the processing

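The counts for the 10 genes were recomputed under 45 combinations of count and setting, and 41 stayed within 1.5 times the reported count. Among these 41 were counts of 0 that stayed 0, and falls from 3 to 2 that lie at that limit. The other 4 came from counting RefSeq starts in place of gene ends, where 6 genes had a start in the table: 4 were marked in WT, 5 in KO, 4 in both and 1 (RBBP5) in KO alone. Fewer genes entered that setting, which lowers the counts by construction, but among the same 6 genes it moved MEN1 to both genotypes and CXXC1 to neither. The count marked in KO alone was 3 with gene ends within 1 kb and with lists of equal length. It was 2 (RBBP5 and CXXC1) with windows of 500 bp, 2 kb or 10 kb, and 2 (RBBP5 and MEN1) with each summit given to the nearest gene only. It was also 2 at a q of 1e-05 or less and with no WT summit allowed within 2 kb. RBBP5 was in each set named here. The count marked in WT alone and the EMBOW-F count were 0 in every setting run for them. With a partner distance of 250 bp, 7 of 10 best KO summits had a WT partner, and with 1 kb or 5 kb 8 had one. No replicates exist, so leaving out a library was not possible. No paired analysis was possible because each group has 1 library and no result comes from a test. Depth is unknown, and a gene without a summit is one where none was called, not one shown to lack WDR5.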
